A study of Homo sapiens with 30 samples.

Results

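Divergent and antisense noncoding RNAs were followed in BEAS-2B, an immortalized human bronchial epithelial cell line, after whole birch pollen had been dispersed onto it. The set holds the array probes whose gene name ends in -DT (divergent transcript) or -AS1 (antisense RNA) and which the scanner software marked as well above background on all 29 arrays that share 1 design. It comprises 640 probes for 435 named transcripts, of 1881 probes carrying such a name and 58201 probes on the design. Of the members, 76 probes (47 names) end in -DT and 564 probes (388 names) in -AS1. The choice used the brightness of the probe on every array, so that a probe dimmer in 1 condition was less likely to enter, and the brightness itself is given as a description only.

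The series holds 30 arrays in 10 groups of 3, each array carrying RNA of 1 culture. Cells were kept at the air-liquid interface and received either 10 mg of whole birch pollen or a mock exposure, labelled air. The methods state that in the mock exposure a mesh kept the pollen away from the cells, and the labels of both exposures carry 10 mg. RNA was taken at 5 times, after 10 min, 55 min, 2h25 min and 6h50 min and after 24 h. All groups share the same line and medium, and a group of 3 cultures of 1 immortalized line without cilia or mucus limits what it stands for. The methods state that exposures were repeated independently on several days, but the labels tie no array to a day, so that p-values measure the spread between these arrays with day unaccounted for. The paper also states that each pollen exposure had a mock control in the same run. The labels do not say which air and pollen arrays share a run, and the main fit took no account of it. Air and pollen arrays lie in different columns of every slide, and position on the slide and exposure cannot be told apart.

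A divergent transcript starts close to the start of a coding gene and runs the other way, usually from a shared promoter rich in CG dinucleotides. Many such RNAs are short-lived, because the cap-binding complex, the Integrator complex and the nuclear exosome end and degrade them soon after they are made, while others are spliced and stable. An antisense RNA is named for the coding gene whose opposite strand it is read from, and it may start near the start of that gene, inside it or beyond its end. The 577 members whose name holds a gene with a tested probe were therefore set beside that gene (386 genes). It is called the coding gene or partner below, although a few of these, such as GAS5 and DLEU1, are themselves noncoding.

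The position of a noncoding start relative to the coding start was taken from RefSeq (GRCh38.p14) for 309 names for which both starts were listed. Where several starts were listed, the nearest pair on opposite strands was taken, so that the distances are the shortest listed. Of 34 -DT names, 32 started within 1000 bases upstream of the coding start on the opposite strand, at a median distance of 173 bases. Of 275 -AS1 names, 89 lay within 1000 bases upstream and 54 within 1000 bases downstream of the coding start, 119 started over 1000 bases downstream and 13 over 1000 bases upstream. The -AS1 suffix thus covered divergent starts as well as starts deep inside or beyond the coding gene. RefSeq has since renamed 20 of the -AS1 names (33 probes) to -DT. On hg19, the build of the files, all 577 members with a tested coding partner lay on the chromosome of that partner and on the other strand.

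**Figure D1:**
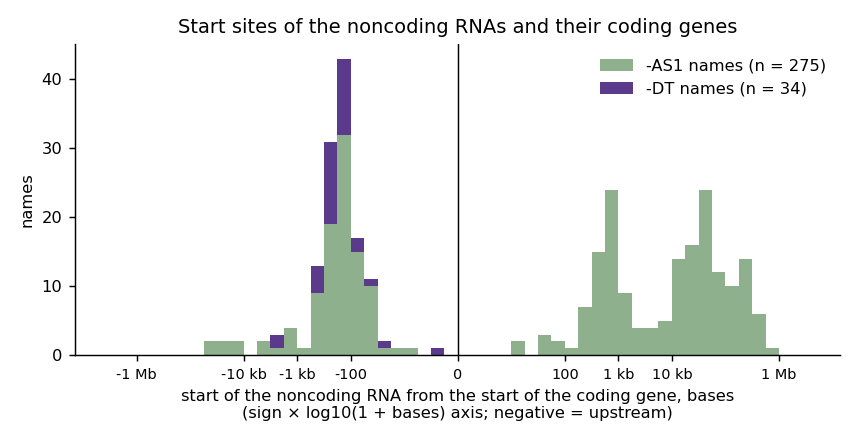
Number of noncoding names (vertical axis) by the distance in bases of their start from the start of their coding gene (horizontal axis, logarithmic on both sides of 0, negative upstream), stacked for 275 -AS1 and 34 -DT names. The -DT names and 89 -AS1 names gather just upstream of the coding start, whereas a further group of -AS1 names lies more than 1000 bases downstream.

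The stretches between both starts are shown for 5 members whose noncoding start lies at most 250 bases upstream of the coding start. These bases lie upstream of both listed starts, and whether they act on either RNA was not tested. They are read 5′ to 3′ on the strand of the noncoding RNA (GRCh38.p14), run from the coding start to the noncoding start without either start base, and carry CG dinucleotides in capitals. UBAC2-AS1 lies at chr13:99200758-99200853 on the minus strand, PCBP1-AS1 at chr2:70087376-70087476 (minus), CCNT2-AS1 at chr2:134918607-134918821 (minus), RAB30-DT at chr11:83071898-83072065 (plus) and TPT1-AS1 at chr13:45341184-45341344 (plus).
UBAC2-AS1: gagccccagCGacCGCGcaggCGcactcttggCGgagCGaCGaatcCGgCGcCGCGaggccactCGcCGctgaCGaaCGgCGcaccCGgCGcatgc
PCBP1-AS1: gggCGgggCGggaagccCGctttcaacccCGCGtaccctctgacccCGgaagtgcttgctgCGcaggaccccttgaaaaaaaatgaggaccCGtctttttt
CCNT2-AS1: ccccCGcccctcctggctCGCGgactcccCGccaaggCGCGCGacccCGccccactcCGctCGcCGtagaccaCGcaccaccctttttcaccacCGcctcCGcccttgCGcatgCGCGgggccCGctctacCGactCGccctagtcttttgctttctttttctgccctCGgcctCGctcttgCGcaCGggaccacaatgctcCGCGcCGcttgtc
RAB30-DT: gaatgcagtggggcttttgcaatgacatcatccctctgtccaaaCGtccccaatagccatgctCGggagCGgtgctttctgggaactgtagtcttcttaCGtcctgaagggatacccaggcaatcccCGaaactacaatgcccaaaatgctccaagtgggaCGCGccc
TPT1-AS1: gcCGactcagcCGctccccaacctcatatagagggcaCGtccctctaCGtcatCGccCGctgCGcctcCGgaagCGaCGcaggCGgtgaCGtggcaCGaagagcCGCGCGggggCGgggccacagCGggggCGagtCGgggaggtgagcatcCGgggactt
The UBAC2-AS1 stretch holds 18 CG dinucleotides in 96 bases and is 76.0% G or C, whereas the RAB30-DT stretch holds 7 in 168 bases and is 54.2% G or C. The CCNT2-AS1 stretch includes the palindrome searched for as the NRF1 motif (GCGC, AT and GCGC without a gap), and the PCBP1-AS1 stretch includes CCGGAAGT, an ETS motif.

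Promoter windows of 300 bases (250 before to 50 after a start) were compared by their letters for all starts that RefSeq lists. A window was counted as CG-rich when it held over 50% G or C and a ratio of observed to expected CG above 0.6. This was so for 92.1% of 38 windows of -DT names, for 66.8% of 322 windows of -AS1 names, for 63.8% of 503 windows of their coding genes and for 46.8% of 35116 windows of all genes. GGGCGG, the GC box, was found on either strand in 81.6% of the -DT windows, 54.7% of the -AS1 windows, 61.2% of the coding gene windows and 45.0% of all windows. The NRF1 palindrome was found in 13.2%, 3.11%, 2.39% and 1.24% of these, and TATAAA, the TATA box, in 0.0%, 7.76%, 12.3% and 11.5%. A match of letters is a description of the window and not a bound site.

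Levels are given as log2 of the processed signal minus the 75th percentile of the array, so that 0 is the brightness of a probe at that percentile, and they are not compared between probes as amounts of RNA. Over all arrays, the mean level of a member ranged from -5.90 to 5.18 with a median of -3.14. The 23675 tested probes of any name that serve as background were chosen by a slightly different rule. They were well above background on every array that held a value for them, the array of the other design included. Members such as PARD6G-AS1 and PSD2-AS1, which were not above background on that array, thus lie outside this background. Its median was -1.06, so that most members sat in the dim part of the range. The highest level was that of the EPB41L4A-AS1 probe (5.18), an RNA that also hosts a small nucleolar RNA, and FGD5-AS1 (3.25) was also among the brightest. The dimmest members were AGBL5-AS1 (-5.90), PRKAG2-AS1 (-5.68) and SLC44A3-AS1 (-5.62). At the edge of the choice, the 43 named probes that were well above background on 28 arrays had mean levels between -5.81 and -3.73 (median -5.23), and the 43 dimmest members between -5.90 and -5.01 (median -5.18). A further 638 named probes were above background on no array.

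Several members measure the same RNA. A total of 139 names had more than 1 member probe, up to 7 for 1 name, and for 4 names the probes that changed over time moved both ways by at least 0.5. Where a member is named below, its other probes are given where they differ. Of the 640 members, 452 are absent from the design of the 55 min pollen replicate 1 array, so that for these the 55 min pollen group is 2 arrays.

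Most of the members changed over the 5 times in either exposure. In air, 393 of 640 members (61.4%) changed over the 5 times (limma's F test, adjusted p under 0.05), beside a background of 63.1% of the 23675 probes of any name well above background on all arrays (61.9% of all 32099 probes tested). In pollen 389 (60.8%) changed, beside 61.6% (60.7% of all tested), and 319 members changed in both. Members ending in -DT (49 of 76, 64.5%) and in -AS1 (344 of 564, 61.0%) were called at like shares. The share of members that changed is thus near the background. Of the 393 members changed in air, 176 (44.8%) had their lowest mean at 24 h, against 31.4% of the changed background probes, and 84 (21.4%) had their highest mean there, against 33.2%. A further 136 (34.6%) were lowest at 6h50 min, against 30.2%. In pollen, 133 of the 389 changed members (34.2%) were lowest at 24 h, against 4092 of the 14590 changed background probes, and 145 (37.3%) at 6h50 min, against 30.8%. Among -DT members, 28 of 49 were lowest at 24 h in air.

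All arrays of 10 min lay on 1 slide and all of 24 h on another. Every difference between these times is thus also a difference between slides, which the counts here do not adjust for. Changes of at least 2-fold between 10 min and 24 h in air were mostly falls. They comprised 53 members (8.28%, 47 names) that fell and 20 (3.12%, 19 names) that rose, beside backgrounds of 4.50% and 2.54% of probes above background on all arrays (7.18% and 3.48% of all tested). In pollen, 30 of the 53 also fell and 18 of the 20 also rose by at least 2-fold, and no member had the opposite sign. Among members below their median level, 10.6% fell by at least 2-fold, against 6.45% of background probes below that level, and above it 5.94% against 3.82%, so that the share was higher than the background at both levels. The median difference between 24 h and 10 min in air was -0.17 over the members and -0.02 over the background probes. Under 4 other scalings the median of the members lay between -0.08 and -0.04, with that of the background between 0.02 and 0.08.

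The falls were also counted by the position of the noncoding start. With 1 probe per name, 20 of 175 names with a start within 1000 bases (11.4%) fell by at least 2-fold in air and 3 (1.71%) rose. Of 134 names whose start lay over 1000 bases from the coding start, 4 (2.99%) fell and 7 (5.22%) rose. Of the 126 names whose starts were not matched, 12 (9.52%) fell and 4 (3.17%) rose. The background shares, counted by probe, were 4.50% and 2.54%. The median difference between 24 h and 10 min was -0.31 for the near and -0.10 for the far starts, and -0.19 for those not matched. Under 4 other scalings the near median lay between -0.22 and -0.15, and the far median between 0 and 0.01, so that a shift of the far starts depended on the scaling. The median level was -2.74 for the near and -2.92 for the far starts. This split was made after the values had been seen and is a description without a test. It too sets the slide of 10 min against that of 24 h.

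Probes of 6 members that carry the findings below are shown 5′ to 3′ with CG dinucleotides in capitals. Each is 60 bases long, is assigned by accession to its noncoding RNA, hence to exons without a UTR, and has the strand of that RNA. On hg19 they lie at chr13:99848696-99848755 (minus, UBAC2-AS1), chr7:116592695-116592754 (minus, ST7-AS1), chr22:46454262-46454321 (plus, PRR34-AS1), chr1:2113522-2113581 (minus, PRKCZ-AS1), chr10:123711386-123711445 (plus, ATE1-AS1) and chr2:109743901-109743960 (minus, SH3RF3-AS1).
UBAC2-AS1: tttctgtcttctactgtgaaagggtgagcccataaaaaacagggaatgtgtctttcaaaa
ST7-AS1: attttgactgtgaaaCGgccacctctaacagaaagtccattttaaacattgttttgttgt
PRR34-AS1: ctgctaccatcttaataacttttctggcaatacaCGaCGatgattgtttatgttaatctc
PRKCZ-AS1: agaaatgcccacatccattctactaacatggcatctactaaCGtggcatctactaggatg
ATE1-AS1: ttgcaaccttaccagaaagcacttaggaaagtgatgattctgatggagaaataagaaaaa
SH3RF3-AS1: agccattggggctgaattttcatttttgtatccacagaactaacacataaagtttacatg
None of these probes is rich in G or C, the range being 35.0% to 43.3%, while the median over all members and over all tested probes was 45.0%.

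UBAC2-AS1 showed the largest F among the members in air (110, adjusted p = 2.87e-10). It starts 97 bases upstream of UBAC2, which encodes a membrane protein of the endoplasmic reticulum. Its level in the 3 air arrays was -1.65, -1.61 and -1.69 at 10 min and -3.29, -3.33 and -3.39 at 24 h, a fall by 1.69. At 55 min, 2h25 min and 6h50 min every air array lay between -1.97 and -1.42. The fall was thus seen only at 24 h, with the 6h50 min arrays on a slide of their own. In pollen UBAC2-AS1 fell by 1.33. Its second probe fell by 1.68 in air, and UBAC2 itself differed by 0.05 between 24 h and 10 min (adjusted p for change over time in air = 0.518).

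ST7-AS1 fell furthest. It starts 833 bases downstream of the start of ST7, a gene named for suppression of tumorigenicity. Its air arrays read -1.42, -1.15 and -0.90 at 10 min and -4.69, -3.86 and -3.69 at 24 h, a fall by 2.92 (adjusted p over the 5 times = 1.44e-07), and its pollen arrays fell by 2.42. The lowest array at 10 min was more than 2 log2 units above the highest at 24 h. ST7 differed by 0.29 between 24 h and 10 min (adjusted p over the 5 times in air = 0.0169).

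PRR34-AS1 fell by 2.22 in air and by 1.70 in pollen on 1 probe, whose air arrays were -3.43, -3.53 and -3.24 at 10 min and -5.65, -5.97 and -5.24 at 24 h. A brighter second probe fell by 1.08 in air, from 2.51, 2.44 and 2.71 to 1.52, 1.44 and 1.46. On both probes the groups did not overlap. SEMA3B-AS1, which starts 281 bases upstream of SEMA3B (a secreted semaphorin that guides cells), fell by 1.90 in air and by 1.29 in pollen. Its air arrays lay between -4.52 and -3.51 at 10 min and between -6.24 and -5.65 at 24 h, and SEMA3B differed by -0.51 between 24 h and 10 min (adjusted p over the 5 times in air = 0.193).

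Over the 10 group means, the members whose pattern was most like that of UBAC2-AS1 were JMJD1C-AS1 (Pearson r = 0.992) and both PRR34-AS1 probes (0.991 and 0.99), against 0.995 for its own second probe. JMJD1C-AS1 fell by 1.20 in air. These points share the arrays and the scaling, and r is given as a description.

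The members that rose most started far from the coding start or were not matched to one. PRKCZ-AS1, which starts 79159 bases downstream of the start of PRKCZ (an atypical protein kinase C of epithelial polarity), rose by 2.21 in air and by 1.91 in pollen. Its air arrays were -3.65, -4.19 and -3.97 at 10 min and -1.26, -1.79 and -2.14 at 24 h, without overlap. PRKCZ differed by -0.30 between 24 h and 10 min (adjusted p over the 5 times in air = 7.72e-07).

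ATE1-AS1 rose by 2.17 in air and by 2.09 in pollen. RefSeq now lists this RNA as ATE1OSP, and ATE1 encodes the arginyltransferase that marks proteins for degradation. Its air arrays read -4.71, -4.14 and -4.86 at 10 min and -2.42, -2.45 and -2.32 at 24 h, whereas ATE1 differed by 0.11 between 24 h and 10 min (adjusted p over the 5 times in air = 0.514). EMC1-AS1 rose by 1.48 in air on 1 probe, from -2.51, -2.41 and -2.95 to -1.23, -0.95 and -1.25, and in pollen it went from -2.58, -2.28 and -2.76 to -1.41, -1.42 and -1.49. Its other probe read -3.18 and -3.14 as air means at these times, a difference of 0.04, so that the probes of EMC1-AS1 disagree in air. In pollen that probe was higher by 0.55 at 24 h (adjusted p over the 5 times in pollen = 0.000894). EMC1, a subunit of the membrane protein complex of the endoplasmic reticulum, differed by 0.18.

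**Figure D2:**
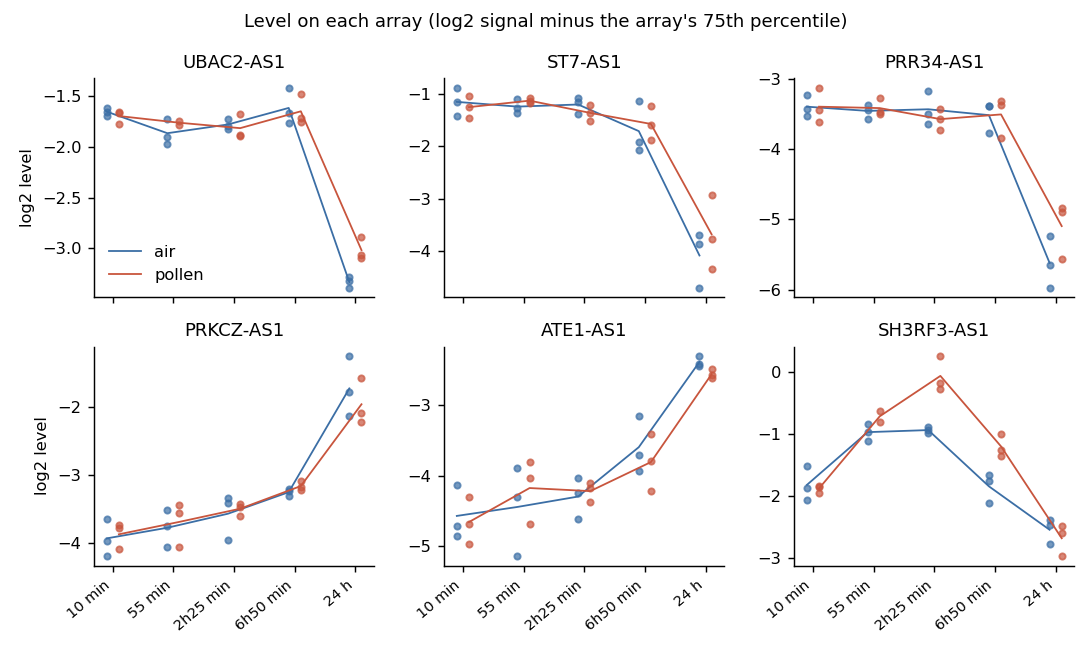
Level on each array (vertical axis, log2 signal minus the array's 75th percentile; the scale differs between panels) over the 5 times (horizontal axis, not to scale) for 6 members in air (blue) and pollen (red), with lines through the group means. UBAC2-AS1, ST7-AS1 and PRR34-AS1 are lowest at 24 h and PRKCZ-AS1 and ATE1-AS1 highest in both exposures, while the 3 pollen arrays of SH3RF3-AS1 lie above the 3 air arrays at 2h25 min.

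The -DT members that changed by at least 2-fold in air, chosen here after their values were seen, were DOCK9-DT (fell by 1.58), CEP83-DT (fell by 1.41), RNFT1-DT (fell by 1.34), SAP30-DT (fell by 1.31) and CAMTA1-DT (fell by 1.06), with LY6E-DT alone rising, by 1.27. DOCK9 encodes an activator of the GTPase CDC42 and SAP30 a subunit of a histone deacetylase complex. In pollen the differences were -1.45, -1.17, -0.98, -1.12, -0.80 and 1.34 in the same order. The coding genes of these names differed in air by 0.0, -0.78, -0.59, -0.61, 0.41 and 0.11, again in that order. Other names with a start close to that of their gene included ENO1-AS1, named for a glycolytic enolase, which fell by 1.36, and USP46-AS1, named for a deubiquitinase, which fell by 1.44. ENO1 itself differed by -0.76 in air and USP46 by 0.83. CCNT2-AS1, named for a cyclin of the elongation factor P-TEFb, rose by 1.37 although it starts 216 bases upstream of CCNT2, which differed by -0.52.

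Slides carried different times, and no slide held arrays of both 10 min and 24 h. The changes were therefore also read within a slide. On the slide that holds the third replicate of 2h25 min and all 24 h arrays, the difference in air between 24 h (n = 3) and 2h25 min (n = 1) was -1.61 for UBAC2-AS1, -2.99 for ST7-AS1, -2.11 for PRR34-AS1 and -1.91 for SEMA3B-AS1. It was 1.69 for PRKCZ-AS1, 2.21 for ATE1-AS1 and 0.88 for EMC1-AS1. These values start from 2h25 min and not from 10 min, so that their sizes are not set against those above. All 6 arrays of 6h50 min share a slide with no other time, and for that time slide and time cannot be told apart. Without 6h50 min, 241 members changed over time in air and 217 in pollen, and with slide as a further term 132 and 84. The shares over all tested probes under these settings are not given here, so that the drop is not read as particular to the members.

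Noncoding RNAs and the coding genes they are named for were set side by side. Over 386 pairs (1 probe for each), Pearson's r of the difference between 24 h and 10 min in air was 0.07, and 200 pairs (51.8%) had the same sign. For 165 pairs with starts within 1000 bases r was 0.04. For the 45 pairs of -DT names r was 0.22, and 57.8% had the same sign. Of 45 noncoding names with a tested partner that changed by at least 2-fold, the partner changed by at least 2-fold the same way for 1 name, LURAP1L-AS1 (1.02, with LURAP1L at 1.39), and the other way for 1 name, FAM13A-AS1 (1.44, with FAM13A at -1.14). The pairs share arrays and scaling, and r is given without a test.

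**Figure D3:**
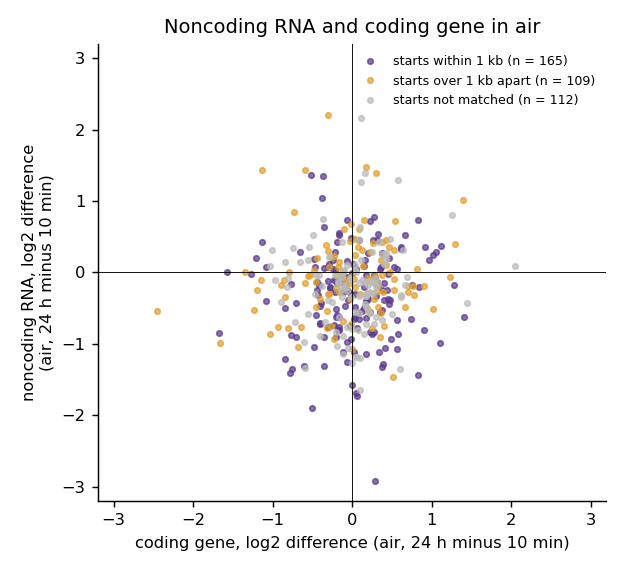
Difference between 24 h and 10 min in air (log2) of the noncoding RNA (vertical axis) against that of its coding gene (horizontal axis), 1 point for each of 386 pairs, coloured by whether the starts lie within 1000 bases (165), further apart (109) or were not matched (112). The points show no common slope (r = 0.07), and 200 of 386 lie in the 2 quadrants of the same sign.

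Pollen was compared with air at each time. With an adjusted p under 0.05 and at least 1.1-fold, 0 of 640 members were called at any of the 5 times by limma over all tested probes. This main fit held no pairing of air and pollen arrays. With the replicate number as a block, 1 member was called at 2h25 min and 8 at 6h50 min. Of these 8, 5 had spots in the dim blocks described below, and the share of all tested probes under this block is not given here. The background of the main fit is low as well. Of all 32099 probes tested, 0.0% were called at 10 min, 0.00312% at 55 min, 0.0343% at 2h25 min, 0.0374% higher and 0.00623% lower at 6h50 min, and 0.00312% at 24 h. At an unadjusted p under 0.05, 12, 18, 26, 38 and 40 members differed at the 5 times in order (1.88%, 2.81%, 4.06%, 5.94% and 6.25%), beside backgrounds of 0.845%, 4.19%, 3.09%, 7.15% and 3.49% of probes above background on all arrays. The members higher in pollen at that p numbered 6, 10, 1, 29 and 39 (background 0.473%, 1.78%, 1.77%, 5.02% and 2.6%), and those lower 6, 8, 25, 9 and 1 (background 0.372%, 2.41%, 1.33%, 2.12% and 0.895%), so that nearly all were lower at 2h25 min and higher at 24 h. No member was called for a pollen effect that differs between times (0 of 640, beside 0.00312% of all tested), and leaving out 1 array at a time gave 0 to 2, the 2 without air replicate 3 of 6h50 min.

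The median difference over the members was -0.01, 0.04, -0.09, -0.01 and 0.05 at the 5 times. Over the background probes it was -0.02 at 2h25 min and 0.0 at 24 h. Among probes below the members' median level, the median at 2h25 min was -0.1 over the members and -0.07 over the background. At or above that level it was -0.08 and -0.01, so that the gap was smaller among dim probes. At 2h25 min 172 of 640 members, and at 24 h 394 of 640, lay above 0, beside 10130 and 11877 of the 23675 background probes. The median over -DT members was -0.14 at 2h25 min and 0.07 at 24 h. These medians over members that share arrays are given without a test. Under every scaling tried the median over the members at 2h25 min stayed between -0.09 and -0.03.

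**Figure D4:**
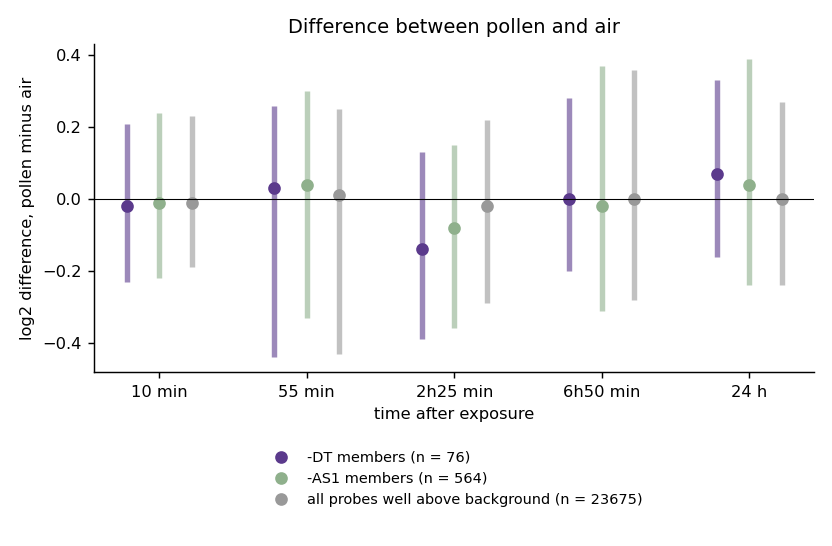
Difference between pollen and air (vertical axis, log2) at the 5 times (horizontal axis) for 76 -DT members, 564 -AS1 members and all 23675 probes well above background; points are medians over probes and bars run from the 5th to the 95th percentile. The -DT and -AS1 medians at 2h25 min are -0.14 and -0.08, beside -0.02 for all probes.

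SH3RF3-AS1 came closest to a call. It starts 914 bases downstream of the start of SH3RF3, a RING-domain ubiquitin ligase that acts as a scaffold. At 2h25 min its level was -0.89, -0.98 and -0.94 in air and -0.17, 0.25 and -0.27 in pollen, so that every pollen array lay above every air array. The difference was 0.88 ± 0.16 (SE, n = 3 against 3), or 1.83-fold, with an adjusted p of 0.0579 (limma). With the replicate number as a block it was 0.88 with an adjusted p of 0.00253 (range over all alternatives 0.00253 to 1). Same-numbered arrays deviated together at this time. The paper states a mock control in each run, but the labels do not say that same-numbered arrays share a run. Replicates 1 and 2 of both exposures lay on 1 slide and replicate 3 of both on another. Replicate number and slide thus overlap here. With slide as a random block the adjusted p was 0.0398 (limma). SH3RF3-AS1 met the threshold in 9 of 44 alternatives, and on the arrays of 1 slide the difference was 0.98.

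Over time SH3RF3-AS1 rose and fell in both exposures. Its mean in air was -1.82, -0.97, -0.94, -1.84 and -2.54 at the 5 times, and in pollen -1.88, -0.72, -0.06, -1.20 and -2.68 (adjusted p over the 5 times = 3.74e-07 and 5.72e-09). At 6h50 min pollen was higher by 0.65 ± 0.16 (adjusted p = 0.141), the arrays of both groups again not overlapping, and at 10 min and 24 h the arrays overlapped. With the replicate block the 6h50 min difference was called (0.65, adjusted p = 0.0169, limma), although same-numbered arrays did not deviate together at that time. The test of whether the pollen effect differs between times gave an adjusted p of 0.775. Its coding partner SH3RF3 differed by -0.27 ± 0.20 at 2h25 min, with the pollen arrays at -3.48, -2.55 and -2.65 and the air arrays at -2.61, -2.66 and -2.59.

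UBAC2-AS1, lowest at 24 h in both exposures, read -3.10, -3.07 and -2.89 in pollen at 24 h, above all 3 air arrays. The difference of 0.32 (unadjusted p = 0.00398, limma, adjusted p = 0.858) and that of its second probe, 0.42 (adjusted p = 0.755), did not pass the threshold. With array weights the second probe was called at 24 h (0.49, adjusted p = 0.0409). Also at 24 h, FAM135A-AS1 read -4.24, -4.55 and -4.54 in pollen and -5.00, -5.05 and -5.26 in air, a difference of 0.66 (adjusted p = 0.695). PCBP1-AS1, named for a poly(C)-binding protein, differed by 0.64 on 1 probe and by -0.01 on another.

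CYP1B1-AS1, which lies opposite the gene of the cytochrome CYP1B1, a target of the aryl hydrocarbon receptor, differed by 0.90 ± 0.23 at 6h50 min (adjusted p = 0.141). Its pollen arrays read -4.94, -4.28 and -4.24 and its air arrays -5.29, -5.15 and -5.73, without overlap, and its other probe differed by 0.43 in the same direction. CYP1B1 itself was at 3.60, 3.84 and 4.37 in pollen and 3.09, 3.62 and 3.15 in air, a difference of 0.65 with an adjusted p of 0.300 and with overlapping arrays. Neither the RNA nor its coding gene passed the threshold. CYP1B1-AS1 passed it in 2 of 42 alternatives, with the replicate block (0.90, adjusted p = 0.0196) and on the deposited log2 values (0.60, adjusted p = 0.0484).

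The other members at the ends of each comparison were no more settled. At 10 min, STARD7-AS1 differed by 0.68 on 1 probe and by 0.25 on the other, SMAD1-AS1 by -0.90 and TTC39A-AS1 by -0.72. At 55 min, CCND2-AS1 and CCNT2-AS1 each differed by 0.62 over 2 pollen arrays. PARD6G-AS1 (-1.21) and PSD2-AS1 (-0.95) had their lowest value, -6.97 and -6.74, on the pollen array of the other design, and on the arrays of 1 slide they differed by 0.04 and 0.16. At 2h25 min, TPT1-AS1 differed by 0.36 (second probe -0.05), ACTA2-AS1 by -1.16 and ZNF236-DT by -0.75 (-0.47 at 24 h). At 6h50 min, SMAD1-AS1 differed by -1.42 and ZFHX4-AS1 by -0.65, and at 24 h PRRT3-AS1 differed by -0.41, which became 0.17 without pollen replicate 1. All of these had adjusted p-values of 0.548 or more (limma).

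For pairs of a noncoding RNA and its coding gene, Pearson's r over the 386 pairs of the differences between pollen and air ranged from -0.01 to 0.08 over the 5 times, and the share of pairs with the same sign from 46.6% to 53.1%. Over the 45 pairs of -DT names r ranged from -0.19 to 0.11. Their share of the same sign ranged from 33.3% at 24 h to 57.8% at 55 min, and was 37.8% at 2h25 min. None of the 386 coding genes was called at any time.

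At 6h50 min a technical measure moved with the comparison. On 2 of the 3 air arrays of this time the centre of the array was dim. Air replicate 1 had 21 of 504 blocks of spots, replicate 2 had 14 and replicate 3 had 0 whose bright probes lay over 0.3 log2 units below their usual level. This map over bright probes was chosen after seeing the data in place of a planned map over all spots, which marked 12, 8 and 288 blocks on the same arrays. The median over the centre was -1.01, -0.686 and -0.0724 on the 3 air arrays. A total of 27 members (4.22%, beside 4.93% of tested probes) have spots in these dim blocks. Relative to their own median at the other times they lay at a median of -0.87, -0.51 and -0.11 on the 3 air arrays and between -0.12 and -0.06 on the pollen arrays. The listed spot of PIK3CD-AS1 (row 27, column 122) lies far from those of the other members counted here. PIK3CD-AS1 deviated by -1.85 to -1.18 on every air and pollen array of this time.

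**Figure D5:**
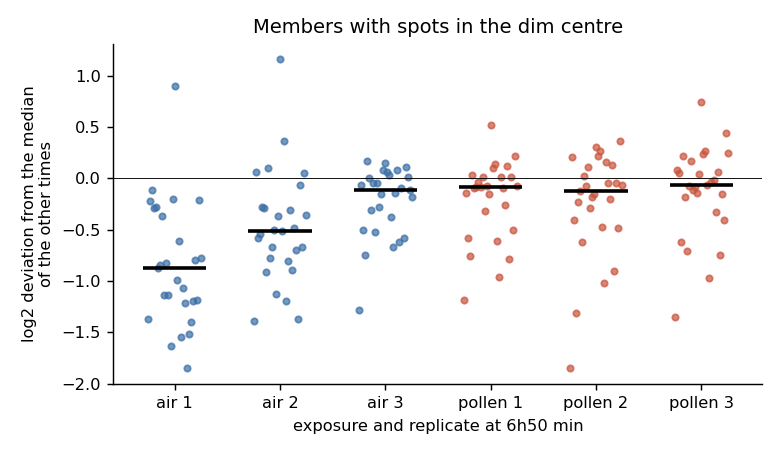
Deviation (vertical axis, log2) of the 27 members with spots in dim blocks from their median at the other times, on each air and pollen array of 6h50 min (horizontal axis); points are members and bars their medians. The medians of air replicates 1 and 2 are -0.87 and -0.51, and those of the other 4 arrays lie between -0.12 and -0.06.

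Of these 27 members, 23 differed from air by more than 0 at 6h50 min, with a median of 0.25, and 12 had an unadjusted p under 0.05, all higher in pollen. Of the other 613 members, 17 were higher and 9 lower at that p, with a median of -0.02. With the dim spots left out, the median over the 27 was 0.02, 14 lay above 0 and 2 had an unadjusted p under 0.05. RAB30-DT, named for a small GTPase of the Golgi, read -0.85, -0.35 and 0.64 in air and 0.72, 0.61 and 0.65 in pollen on its probe in the centre. Its difference of 0.84 became 0.02 without the dim spots, and its other 3 probes, elsewhere on the array, differed by -0.11, -0.12 and -0.09. MAPKAPK5-AS1 went from 0.83 to 0.20, TFAP2A-AS1 from 0.84 to -0.13, PAXBP1-AS1 from 0.67 to 0.13 and MCM3AP-AS1 from 0.66 to 0, each with 1 air array left. Under the planned map over all spots PAXBP1-AS1 was called, at 0.94 (adjusted p = 0.0107).

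UBL7-AS1 had the lowest p of the 27. It starts 77 bases upstream of UBL7, a gene for a ubiquitin-like protein. Its air arrays read -2.83, -2.45 and -2.21 and its pollen arrays -1.77, -1.76 and -1.52, without overlap, a difference of 0.82 ± 0.16 (adjusted p = 0.0643, limma). With the dim spot left out, 2 air arrays remained and the difference was 0.65 (adjusted p = 0.355). Under the planned map over all spots UBL7-AS1 was called instead (0.96, adjusted p = 0.0259). It was also called with array weights, with the replicate block, with slide as a random block, on the deposited values, with only probes above background on all arrays, without air replicate 3 of 6h50 min and without pollen replicate 2 of 24 h, with differences between 0.82 and 0.97.

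Without air replicate 3, the only air array of 6h50 min with no dim block, 9 members were called at 6h50 min, of which 7 lie in the dim blocks. RAB30-DT then differed by 1.25 (adjusted p = 4.25e-06, limma). With array weights 6 of 7 called members, with the replicate block 5 of 8 and on the deposited log2 values 4 of 5 lie there. The shares of all tested probes called under these settings are not given here, so that these counts are not read as particular to the members.

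A pair of divergent RNAs outside the members also passed the threshold at 6h50 min with spots in the dim blocks. RNF139-AS1, which RefSeq now names RNF139-DT, was well above background on 26 arrays and differed by 2.07 (adjusted p = 0.0209, limma), 1 of its 3 air arrays being above background, so that the size of this difference rests on 2 air arrays that were not. PELP1-DT, listed in the files as LOC101559451 and thus not chosen by name, differed by 1.29 (adjusted p = 0.0423) on a probe above background on 28 arrays. Its second probe, outside the dim blocks and above background on 29 arrays, differed by 0.07. B4GALT1-AS1, above background on 19 arrays and outside the dim blocks, was lower in pollen at 6h50 min (adjusted p = 0.0043). Its air arrays lay between -6.17 and -5.84, and its 3 pollen arrays were not well above background, between -7.85 and -7.23, so that they give only an upper bound and no fold is stated.

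Genes of the machinery that ends and degrades such RNAs were measured by a list of exosome, Integrator and cap-binding genes, all 38 of which were tested. None was called between pollen and air at any time, beside the backgrounds given above. Over time in air, 19 were higher and 9 lower at 24 h among those called, with a median of 0.11, beside a background of 61.9% of all tested probes that changed. INTS13, an Integrator subunit, fell by 1.02 and INTS11, its endonuclease, fell by 0.70, while SRRT, which links the cap to the exosome, rose by 0.70, and the exosome nuclease EXOSC10 rose by 0.39. Of 23 well-known long noncoding RNAs, among them EPB41L4A-AS1 and OIP5-AS1, again 0 were called against pollen, and over time 11 were higher and 9 lower with a median of 0.12, beside the same background. Those that fell included SNHG1 (fell by 1.02) and H19 (fell by 1.16), and those that rose CYTOR (0.86), ZFAS1 (0.65) and SNHG6 (0.59).

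The cells carried the markers of their label. All 8 epithelial markers, among them KRT18 and EPCAM, were well above background on all 29 arrays, as was VIM. Of the other mesenchymal markers, COL1A1, DCN and PDGFRB were above background on 29 arrays and COL1A2 on 22. Of the leukocyte markers, PTPRC and CD14 were above it on 29 arrays and CD3E on 17, and of the endothelial markers, CDH5 on 29, VWF on 28 and PECAM1 on 0. The part of other cell types in the results was not tested. Per array, 44.7% to 59.3% of probes exceeded background by that mark, and 0 spots were saturated. In bulk RNA of this kind, fewer cells with an RNA and less of it per cell cannot be told apart.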

How the data were processed

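Cy3-labelled total RNA of 30 BEAS-2B cultures was hybridised to one-colour Agilent arrays. Per the file headers, the authors deposited spot intensities made with Agilent Feature Extraction 11.0.1.1, which subtracts the background and detrends each array by itself, with hg19 positions. A deposited table of the authors' log2 values, made with limma according to the methods and with its scaling not stated, served as an alternative. Its column matched its own array best for 23 of 29 columns compared, and another array of the same group for the other 6. The deposited flags (other values of 0 or 1) mark spots well above background, saturated or uneven. A total of 0 columns were left without a condition.

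Spots marked as outliers were left out, replicate spots averaged, and log2 intensity was taken minus the 75th percentile of the array over the 33873 probes shared by both designs (that percentile was 578 to 2111 intensity units). Probes absent from the design of the 55 min pollen replicate 1 array were missing there. A probe was tested if some group had all 3 of its arrays well above background, and these 32099 probes were fitted with 10 group means in limma 3.58.1 (R 4.3.3), with Benjamini-Hochberg adjustment over all of them, and called at an adjusted p under 0.05 and at least 1.1-fold. The scripts were tested on simulated data. The number of arrays limits the precision.

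The members, gene lists, named genes and tests were chosen with earlier results of these data known. Named were the 2 members highest and lowest in each pollen comparison, the 3 with the largest rise and fall in air, the 3 brightest and dimmest, the largest F and the patterns most like it, and all members in dim blocks. Some items that these rules name are not reported here. Same-numbered air and pollen arrays deviated together from their group means at 10 min (r = 0.30 to 0.31), 2h25 min (0.38 to 0.50) and 24 h (0.19 to 0.42). They did not at 55 min (-0.12 to 0.35) and 6h50 min (0.053 to 0.089). The labels state no pairing of these arrays, although the paper states a mock control in each run. Sequences came from the files and from RefSeq (GRCh38.p14), to which 628 members matched by accession. The strand of a probe equalled that of its RefSeq gene for 99.4% of 17917 probes. Names are those of the newer array annotation, and 37 members have another name in the older one.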

Additional observations from a re-analysis of the deposited data

How the results depend on the processing

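The falls and rises between 10 min and 24 h in air of ST7-AS1, PRR34-AS1, SEMA3B-AS1, UBAC2-AS1, PRKCZ-AS1, ATE1-AS1 and EMC1-AS1 kept their direction and their call in all 44 alternatives run for each. The differences ranged from -3.31 to -2.05 for ST7-AS1, -2.41 to -0.90 for PRR34-AS1, -2.16 to -0.72 for SEMA3B-AS1, -2.0 to -1.23 for UBAC2-AS1, 1.60 to 2.41 for PRKCZ-AS1, 1.29 to 2.39 for ATE1-AS1 and 0.87 to 1.58 for EMC1-AS1. Counts of called members moved by over 1.5 times as follows. At 6h50 min, 0 became 5 on the deposited log2 values, 1 with only probes above background on all arrays, 7 with array weights, 8 with the replicate block, 1 with slide as a random block and 2 with dim blocks taken from all spots. At 2h25 min, 0 became 1, SH3RF3-AS1, on the deposited values, with only probes above background on all arrays, with the replicate block and with slide as a random block. With array weights, 0 became 3 at 55 min and 3 at 24 h. Of 393 members changed over time in air, the count became 260 with the percentile over the own design, 198 with quantile normalization and 256 with normexp and quantile normalization. In pollen, 389 became 257 with slide as a random block. In alternatives chosen after seeing the data, the count without 6h50 min was 241 in air and 217 in pollen, and with slide as a fixed term too 132 and 84. The replicate block left the count at 0 at 10 min, 55 min and 24 h, and same-numbered arrays did not deviate together at 6h50 min. The shares over all tested probes under these settings are not given here, so that no move is read as particular to the members. The cause of each move was not tested.

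Leaving out 1 array gave 0 to 1 called members at 2h25 min (SH3RF3-AS1 was called without 10 min air replicate 1, 55 min pollen replicate 1, 2h25 min pollen replicate 3, 6h50 min air replicate 3 or 24 h pollen replicate 2) and 0 to 9 at 6h50 min (9 without air replicate 3 of that time), 347 to 413 changed in air, 331 to 396 in pollen, and 0 to 2 with a pollen effect that differs between times (2 without that same array). The other counts were 0 in all. The sign turned for PSD2-AS1 at 55 min (0.52 with array weights, 0.16 on 1 slide), PARD6G-AS1 at 55 min (0.04 on 1 slide) and PRRT3-AS1 at 24 h (-1.05 to 0.17 leaving out 1 array, the latter without pollen replicate 1). Signal over background limits the dim members, the lowest of which average -5.90.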
